A study of Mus musculus with 12 samples.

Results

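The comparison set Usp7 knockdown against its control in cultured female germline stem cells (FGSCs), self-renewing germ cells that can be grown from mouse ovaries. It was chosen by its labels and comprised 6 of the series' 12 RNA-seq libraries, with every transcript of their table. The knockdown group held 3 libraries of FGSCs of the strain C57BL/6 with the genotype usp7 knockdown. The reference was 3 libraries of C57BL/6 FGSCs with the genotype control, titled as the control of the knockdown. How Usp7 was knocked down, what the controls received, the age of the mice and the passage of the cells are not given in the labels. They do not say whether the replicates of a group were separate cultures or animals. The p-values therefore measure only the spread between these libraries, which may be technical. The other 6 libraries, of Usp7 overexpression and its control, were not used.

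USP7 is a deubiquitinase, an enzyme that takes ubiquitin off other proteins and so spares many of them from the proteasome. Its best-studied substrates are MDM2, the ubiquitin ligase that marks p53 for destruction, and p53 itself, and it also acts on FOXO factors, on claspin in the replication checkpoint and on RING proteins of Polycomb complexes. Female germline stem cells divide in culture while holding back meiosis and the later germ cell programmes. The groups below run from stress and arrest genes through division and growth machinery to germline, matrix and signalling genes.

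The table held 3156 transcripts of 3127 genes, 2935 of them coding and 221 non-coding by their RefSeq prefix. All had been selected on these same libraries, since in the authors' deposited table the smallest fold, up or down, was 1.5 and no adjusted p was above 0.05. Values are normalized counts, reads divided by 1 size factor per library, and log2 folds were computed from them on the log2(normalized count + 1) scale as knockdown over control, with limma and Benjamini-Hochberg (BH) adjustment. Of the 2902 transcripts with enough counts to test, 2898 (99.9%) passed at an adjusted p under 0.05, and in 2888 (99.5%) the knockdown and control libraries did not overlap. A call or a separation is therefore the background of the table and not evidence about any one gene. Genes named by rule below also had to have groups that do not overlap, so their separation was fixed in advance. The most abundant genes and those picked for a high control replicate 2 were exempt from that condition. The background for direction was 49.1% of tested transcripts higher in knockdown and 50.7% lower, and the median log2 fold over all tested transcripts was -0.61.

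Higher transcripts were the more abundant ones. Their median level was 424 normalized counts, against 66.4 for lower transcripts, and 1152 of the 1426 higher calls but 581 of the 1472 lower calls had a mean of at least 100. With a minimum of 100 normalized counts in 3 libraries 64.3% of calls were higher, so the background for abundant groups lies above 49.1%. The lower transcripts had the larger folds, with 152 at a log2 fold of -2 or below and 46 at 2 or above. With no library scaling 699 transcripts were called higher and 1444 lower, and that setting moved the median of all tested transcripts by -0.12. It leaves differences in read depth between libraries in the values. The filter on low counts kept 254 listed transcripts out of the test, of which 234 were lower in knockdown. Usp7 and other genes that the selection does not list were not analysed here, so the level of the targeted gene could not check the labels.

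Recovered reads of the listed transcripts summed to 3984031 to 7079919 in knockdown libraries and 2546675 to 3943383 in controls, and the depth of the whole libraries is unknown. The ribosomal RNA precursor Rn45s took 65.3%, 63.8% and 58.7% of the listed counts in knockdown replicates 1 to 3, against 52.8%, 51.5% and 53.6% in the controls. Folds also moved with transcript length, which was known for 3063 transcripts (97.1%). The median log2 fold was 0.98 for transcripts of up to 750 bases, of which 77.2% were higher, and -0.97 for those over 6000 bases, of which 31.1% were higher. It was 0.66 for those over 750 and up to 1500 bases, with 59.4% higher. For those over 1500 and up to 2500 bases it was -0.64, with 48.4% higher. Since the selection left no folds near 0, a class median can lie far from 0 though its transcripts split almost evenly. Length moved with the spread inside the knockdown group as well. Replicate 3 exceeded replicate 1 by a median of 0.58 on the log2 scale for the shortest class and by 0.16 for transcripts of 2501 to 4000 bases, while among controls the same difference was -0.20 and -0.04. The part of transcript length in the group results was not tested. Where the median fold of a group's length class is given below, it is that of all tested transcripts in the class that holds the group's median length.

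**Figure D1:**
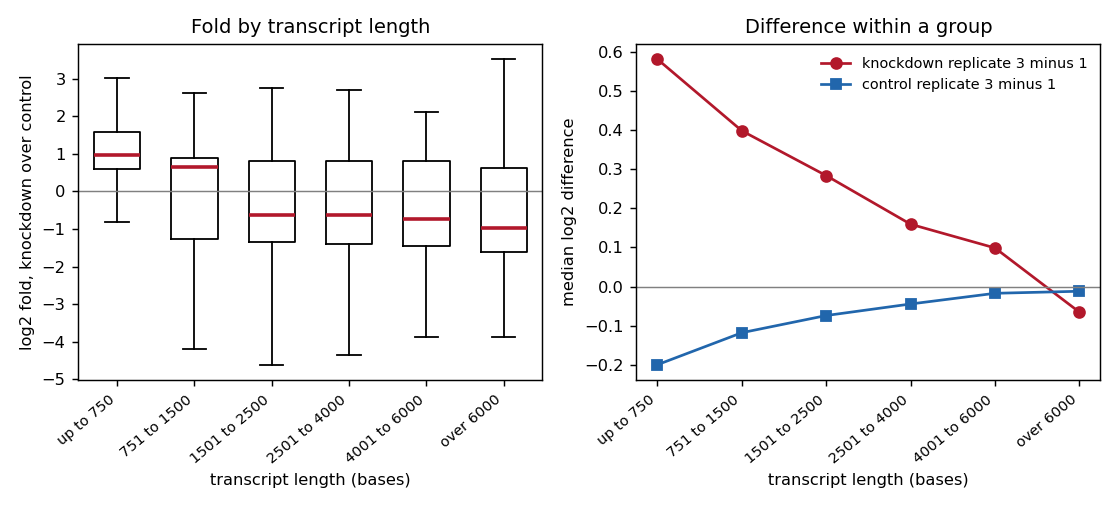
Transcript length and fold. Left, boxes show the quartiles and red lines the median log2 fold (knockdown over control) of tested transcripts in 6 length classes in bases, whiskers reach 1.5 times the interquartile range, and outlying points are left out. Right, the median log2 difference between replicates 3 and 1 within knockdown (red circles) and within control (blue squares); knockdown replicate 3 was 0.58 above replicate 1 for the shortest transcripts and -0.06 for the longest.

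Control replicate 2 stood apart from the other controls. In it, 143 transcripts (4.53% of those listed) lay more than 2 log2 units above both other controls, whereas 1 to 3 transcripts stood out in this way in single knockdown libraries and 0 in control replicates 1 and 3. The median of these 143 transcripts was 2.08, 2.34 and 1.39 normalized counts in knockdown replicates 1 to 3, against 5.72, 60.6 and 6.12 in control replicates 1 to 3. All 143 were lower in knockdown by their means, and 107 were also below both remaining controls in every knockdown library. The direction was nearly fixed by the choice, since a high control replicate 2 raises the control mean. In 98.4% of all listed transcripts the knockdown and control libraries did not overlap. Only 39 had enough counts to test, with a median log2 fold of -2.21, which was -1.26 without control replicate 2. Over all tested transcripts 2883 (99.3%) still passed without that library, 1420 higher and 1463 lower.

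**Figure D2:**
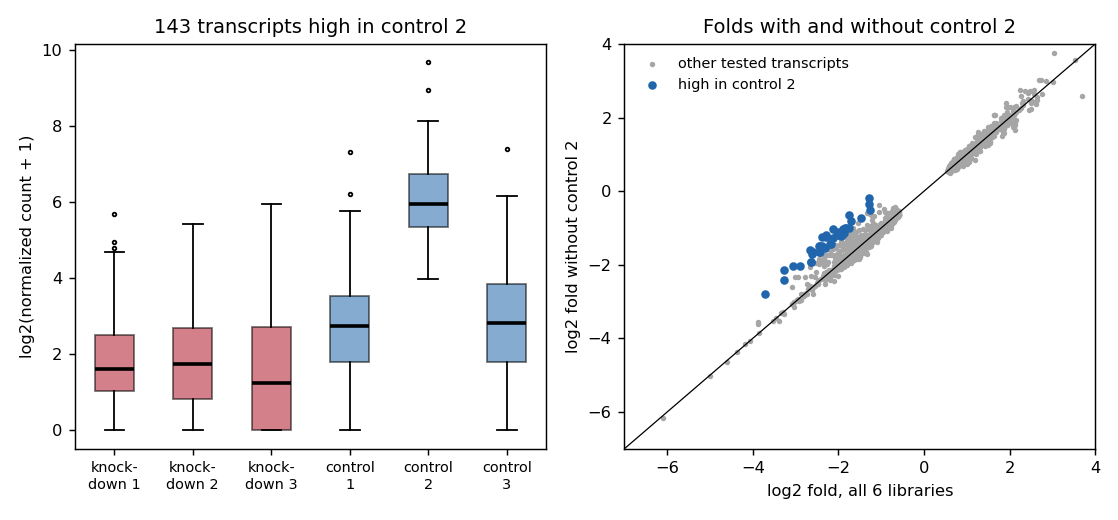
Control replicate 2. Left, log2(normalized count + 1) of the 143 transcripts that exceeded both other controls by more than 2 log2 units in that library, with knockdown libraries in red and controls in blue (boxes are quartiles, lines medians, points outliers). Right, log2 fold of every tested transcript with all 6 libraries (x) and without control replicate 2 (y); the transcripts high in that library (blue) lie above the diagonal, so their decrease was smaller without it.

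Markers of other ovarian cells were among those transcripts. Wt1, a transcription factor of granulosa and mesothelial cells, had 4.16, 6.23 and 0 normalized counts in knockdown replicates 1 to 3, against 6.54, 81.4 and 6.12 in the controls. Cyp17a1, a steroidogenic enzyme of theca cells, had 2.08, 0.779 and 1.39 in knockdown against 2.45, 64.1 and 4.9 in the controls, and Nobox, a transcription factor of oocytes, 0, 0.779 and 0 against 1.63, 33.8 and 1.22. All 3 were named after their values were seen, and in each control replicate 2 alone was high. Wt1 was the only 1 of 11 granulosa cell markers listed, and Nobox the only 1 of 12 oocyte markers. The other 2 listed theca and steroidogenic markers rose, Cyp11a1, which starts steroid synthesis, with 371, 447 and 424 in knockdown against 227, 230.3 and 245 in controls (log2 fold 0.82), and the hormone Insl3 (log2 fold 1.54). The summed level of the 3 theca markers was 394, 477 and 461 in knockdown against 241, 305 and 256 in the controls. Of 9 smooth muscle markers 4 were listed, and their summed level was 245, 246 and 272 in knockdown against 588, 1720 and 518 in the controls. Of 9 endothelial markers 2 were listed, with sums of 0, 4.68 and 8.31 in knockdown against 12.3, 75.3 and 14.7 in the controls. For ovarian surface epithelium 3 of 10 markers were listed, and their sum was not raised in control replicate 2. It was 41.6, 57.7 and 56.8 in knockdown against 129.9, 129.9 and 101.7 in control replicates 1 to 3. In bulk RNA, fewer cells of a type and less RNA per cell cannot be told apart, and the part of other cells in the folds was not tested beyond leaving this library out.

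For the labelled cell type itself the table gave little to check. Of 13 markers of female germline stem cells only Id4, Bcl6b and Ifitm3 were listed, and the others were not analysed here. Id4, an inhibitor of differentiation kept by germline stem cells, had 23.9, 17.1 and 22.2 normalized counts in knockdown against 50.6, 41.6 and 41.6 in control libraries, and the groups did not overlap (log2 fold -1.05 ± 0.21 SE, limma with BH, adjusted p = 0.0011). Bcl6b, a transcriptional repressor induced by GDNF, had 2.08, 3.9 and 4.16 in knockdown against 14.7, 9.52 and 14.7 in the controls, too few for the test. Ifitm3, also too low to test, had 3.12, 3.12 and 1.39 against 5.72, 44.2 and 7.35, with control replicate 2 far above the rest. The summed level of the 3 markers was 29.1, 24.2 and 27.7 in knockdown against 71.1, 95.2 and 63.7 in the controls.

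Genes of the unfolded protein response and targets of ATF4, the transcription factor that cells make when protein folding or amino acid supply fails, had the lowest folds of any group of 10 or more. Of 36 such genes 15 were listed and tested, all 15 fell, where 50.7% of all tested transcripts did, and their median log2 fold was -2.37, against -0.61 over all tested transcripts. Without control replicate 2 all 15 were again lower and the median was -2.31.

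Trib3 (chr2:152337425-152344060, GRCm38, protein-coding), a pseudokinase that ATF4 induces, had 190.2, 207 and 220.3 normalized counts in knockdown replicates 1 to 3, against 5235, 4813 and 5099.8 in the controls. Every knockdown library lay far below every control, and libraries of a group were close together (log2 fold -4.61 ± 0.09 SE, limma with BH, adjusted p = 2.0e-08). Nupr1 (chr7:126623246-126625470), a small stress-induced chromatin protein, was at 7.28, 7.01 and 12.5 in knockdown against 339, 296 and 289 in control libraries (log2 fold -5.00 ± 0.22 SE, limma with BH, adjusted p = 2.4e-06). Chac1 (chr2:119351242-119354326), which breaks down glutathione, stood at 57.2, 67.8 and 74.8 against 1132, 1101 and 1119 (log2 fold -4.06 ± 0.12 SE, limma with BH, adjusted p = 1.9e-07). In these 3 genes the spread within either group was small beside the distance between the groups. Atf3 (chr1:191170296-191183333), a stress-induced transcription factor named after its values were seen because its mean fell just under 100, had 4.16, 0.779 and 1.39 in knockdown against 197, 175 and 202 in controls (log2 fold -6.10 ± 0.37 SE, limma with BH, adjusted p = 6.9e-06). With knockdown counts so near 0, its fold depends on the pseudocount.

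The remaining members fell less. Ddit4, an inhibitor of the growth kinase complex mTORC1 and a target of both ATF4 and p53, had 728, 815 and 1027 normalized counts in knockdown, against 5439.7, 5021 and 5268 in the controls (log2 fold -2.63 ± 0.13 SE, limma with BH, adjusted p = 3.1e-06). Knockdown replicate 3 was the highest of its group and still far below every control. Members outside the naming rule, given after their values were seen, included Soat2, a cholesterol esterifying enzyme (-2.50), the transcription factor Jdp2 (-2.03), Ppp1r15a, the phosphatase subunit that ends the ATF4 response (-1.63), and Ddit3, the transcription factor CHOP (-2.88). The smallest decrease of the list was that of Sesn2, a stress-induced inhibitor of mTORC1 (-0.90). Eif2ak3, the endoplasmic reticulum kinase PERK that starts this response, stood in the list of translation factors and was lower too (-1.01). Eif2ak2, a related kinase in the same list, was higher.

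Promoters of this group are shown because 7 of the 14 with a RefSeq promoter (50%) held the letters TGATGNAA, a composite element of ATF4 and C/EBP proteins, on either strand within 250 bases before and 50 after the start site. The share was 4.51% over 27025 genes, 1.60% of the tested genes higher in knockdown and 4.64% of those lower. It was 1 of 8 motifs searched, all chosen with results known, and a match describes letters, not binding. The list was itself made up in part of known ATF4 targets, so a high share of the ATF4 element is partly given by the list. The windows below lie before the start site on GRCm38.p6 at chr7:126625547-126625606 (Nupr1, minus strand), chr2:119351023-119351082 (Chac1, plus strand), chr1:191183410-191183469 (Atf3, minus strand), chr12:85599357-85599415 (Jdp2, plus strand) and chr3:50443646-50443705 (Slc7a11, minus strand), are given 5′ to 3′ on the gene's strand, and carry the element or its reverse complement in capitals. In Trib3 the element lay after the start site and is not shown.
Nupr1: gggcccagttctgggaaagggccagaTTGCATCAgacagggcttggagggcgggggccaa
Chac1: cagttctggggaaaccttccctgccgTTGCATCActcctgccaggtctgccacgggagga
Atf3: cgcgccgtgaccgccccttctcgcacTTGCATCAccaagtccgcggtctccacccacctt
Jdp2: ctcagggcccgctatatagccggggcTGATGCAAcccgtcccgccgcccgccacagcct
Slc7a11: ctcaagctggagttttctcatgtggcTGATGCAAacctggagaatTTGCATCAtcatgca
Slc7a11, the cystine transporter, held the element in both orientations and had 350.3, 257 and 213 normalized counts in knockdown, against 774, 771 and 849 in the controls (log2 fold -1.57 ± 0.17 SE, limma with BH, adjusted p = 5.7e-05).

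Genes that charge, make and bring in amino acids include several ATF4 targets of mammals. All 5 listed cytosolic aminoacyl-tRNA synthetases, which load amino acids onto tRNA, fell, of 38 in the list (median log2 fold -1.0). Aars, for alanine, had 4237, 4661 and 5403 normalized counts in knockdown against 9921, 9203 and 9353 in the controls (log2 fold -1.0 ± 0.11 SE, limma with BH, adjusted p = 5.4e-05). Iars (-0.65) and Tars (-0.63) fell less, and the listed transcripts of Sars and Cars had few counts. In each of the 3 abundant synthetases the groups stood apart, as the naming rule required.

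Of 9 amino acid and one-carbon synthesis genes 3 fell and 6 rose. Asns, asparagine synthetase, was at 1205, 1290.5 and 1320.5 in knockdown against 2709, 2409 and 2561 in controls (log2 fold -1.01 ± 0.09 SE, limma with BH, adjusted p = 2.5e-05), and Gpt2, a mitochondrial alanine aminotransferase, at 575, 598 and 569 against 1463, 1407 and 1443 (log2 fold -1.31 ± 0.08 SE, limma with BH, adjusted p = 8.5e-06). Among 41 solute carriers 26 fell and 15 rose. The amino acid transporters Slc6a9 (-2.01), Slc1a4 (-1.69) and Slc7a5 (-0.64) fell, and Slc7a5 was among the most abundant transcripts, with 8470.0, 9254 and 10632 in knockdown against 15113, 14148 and 14747 in the controls.

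Heat shock genes split as well. Hspa1a (chr17:34969359-34972156), a stress-inducible HSP70 chaperone, had 61.3, 56.9 and 70.7 normalized counts in knockdown against 1331, 1281 and 1308 in control libraries (log2 fold -4.36 ± 0.11 SE, limma with BH, adjusted p = 7.9e-08). Its near-identical neighbour Hspa1b had 149, 180.0 and 216 against 1402, 1431 and 1402 (log2 fold -2.97 ± 0.14 SE, limma with BH, adjusted p = 2.7e-06), and reads may be shared between the pair, so their separate values are uncertain. In both genes the control libraries lay close together and far above the knockdown. The mitochondrial chaperonin subunit Hspe1 rose, with 4719, 4855 and 5973 in knockdown against 2999.7, 2717 and 2723 in controls (log2 fold 0.87 ± 0.11 SE, limma with BH, adjusted p = 1.1e-04).

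Redox genes moved in both directions, 7 of 15 up and 8 down, with a median of -0.78 that was 0.70 among members with at least 100 normalized counts in 3 libraries. The median of all tested transcripts moved alike with that minimum, from -0.61 to 0.67. Hmox1, heme oxygenase, had 606, 595 and 687 in knockdown against 2863, 2476 and 2783 in the controls (log2 fold -2.10 ± 0.10 SE, limma with BH, adjusted p = 3.1e-06). Prdx1, a peroxide-reducing enzyme, had 2979, 3123 and 4016 against 1464, 1457 and 1260.3 (log2 fold 1.26 ± 0.13 SE, limma with BH, adjusted p = 4.3e-05). Both listed metallothioneins, small proteins that bind zinc and copper, rose. Mt2 (chr8:94172618-94173567) was at 4339, 4893 and 6751 in knockdown against 1139.6, 1084 and 1059 in controls (log2 fold 2.26 ± 0.15 SE, limma with BH, adjusted p = 1.0e-05), and its neighbour Mt1 (chr8:94178883-94180327), named outside the rule, at 5680.2, 6608 and 8418 against 2425, 2262 and 2159 (log2 fold 1.58). Knockdown replicate 3 was the highest library for each, and the 2 transcripts fall in the length class of up to 750 bases, whose median fold was 0.98.

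Among p53 targets, of which 8 of 29 were listed, 7 fell and 1 rose (median log2 fold -1.65), and 2 of the 7, Ddit4 and Sesn2, are also ATF4 targets. Gadd45a, a growth arrest and repair protein, had 30.1, 18.7 and 30.5 normalized counts in knockdown against 203, 237 and 246 in the controls (log2 fold -3.09 ± 0.21 SE, limma with BH, adjusted p = 1.0e-05). Bbc3, which encodes the cell death activator PUMA, was at 503, 621 and 973 in knockdown against 2271, 2228 and 2383 in controls (log2 fold -1.77 ± 0.21 SE, limma with BH, adjusted p = 8.1e-05). Knockdown replicate 3 had the most Bbc3 of its group without reaching a control. The member that rose was Tigar, a sugar phosphatase, at 229.7, 207 and 248 against 98.8, 94.4 and 90.6 (log2 fold 1.26, named after its value was seen). Commonly used targets outside the selection, the arrest gene Cdkn1a and Mdm2 among them, were not analysed here.

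All 11 listed immediate early genes, switched on quickly by mitogens and stress, fell, of 30 in the list (median log2 fold -1.35). Btg1, an inhibitor of proliferation, had 103, 95.1 and 66.5 in knockdown against 450.1, 508 and 478 in controls (log2 fold -2.45 ± 0.17 SE, limma with BH, adjusted p = 1.0e-05). Jun, a subunit of the transcription factor AP-1, had 265, 302 and 371 against 954, 912 and 876 (log2 fold -1.56 ± 0.13 SE, limma with BH, adjusted p = 2.1e-05), and Klf6, a zinc finger factor, 755, 616 and 673 against 1561, 1356 and 1499 (log2 fold -1.11 ± 0.11 SE, limma with BH, adjusted p = 3.5e-05). No overlap between groups was a condition for naming these 3 genes.

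Quiescence genes and FOXO targets fell in all 8 of the cases tested, of 18 in the list (median log2 fold -1.44). Klhl24, an adaptor of a ubiquitin ligase, had 38.5, 51.4 and 29.1 normalized counts in knockdown against 356, 394 and 420.1 in controls (log2 fold -3.30 ± 0.20 SE, limma with BH, adjusted p = 6.6e-06). Ccng2, an unconventional cyclin of arrested cells, had 116, 105 and 80.4 against 464, 431 and 469 (log2 fold -2.18 ± 0.15 SE, limma with BH, adjusted p = 1.0e-05). Pik3ip1, an inhibitor of PI3 kinase, was at 64.4, 77.1 and 81.8 against 312, 356 and 299 (log2 fold -2.10 ± 0.14 SE, limma with BH, adjusted p = 9.1e-06). Foxo3 itself, the factor that holds primordial oocytes at rest, had 560.2, 587 and 518 in knockdown against 893, 919 and 964 in controls (log2 fold -0.74 ± 0.09 SE, limma with BH, adjusted p = 1.1e-04), the smallest decrease of the list.

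**Figure D3:**
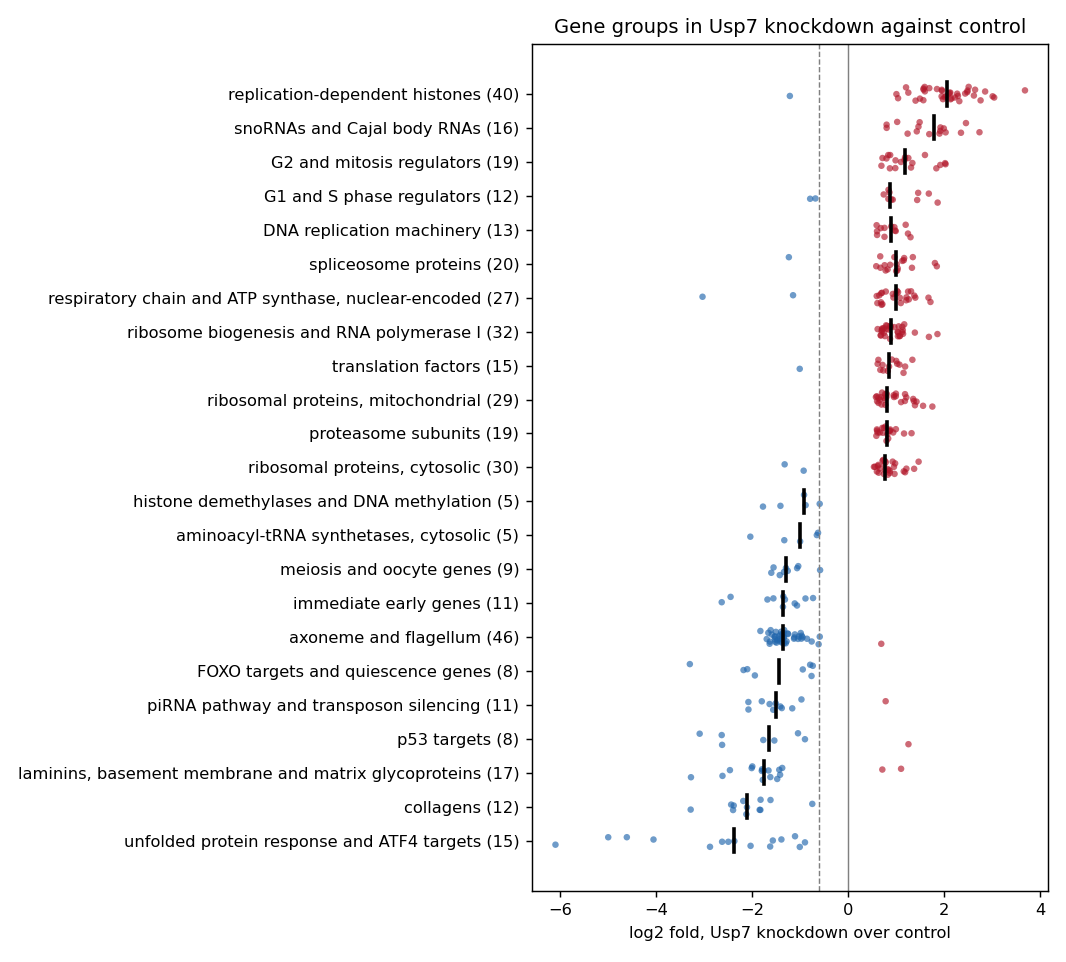
Log2 folds (knockdown over control) of the tested members of 23 gene groups, with the number of members in parentheses; each point is a gene, red above 0 and blue below, and black bars are group medians. The dashed line is the median of all tested transcripts (-0.61), and since every transcript had been selected for a fold of at least 1.5 no group has points near 0.

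Regulators of cell division were higher in knockdown. All 19 listed regulators of G2 and mitosis rose, of 41 in the list, where 49.1% of all tested transcripts did (median log2 fold 1.18), 10 of 12 G1 and S phase regulators rose (median 0.88), and all 13 listed genes of the replication machinery rose (median 0.90). Of the 19 mitotic genes 18 had a mean of at least 100. With a minimum of 100 normalized counts in 3 libraries, 64.3% of all calls were higher. The median length of the mitotic group was 2489 bases, in a length class whose median fold was -0.64 but in which 48.4% of transcripts were higher. With no library scaling 16 of the 19 mitotic genes were called higher, and with listed totals without Rn45s 18. Those totals come from the selected transcripts themselves and were larger in every knockdown library, so that scale takes part of the increases out. Over all tested transcripts the higher calls numbered 1426 in the main fit, 699 with no library scaling and 978 with listed totals.

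Ube2c (chr2:164769929-164772902), the ubiquitin-conjugating enzyme that works with the anaphase-promoting complex, had 1716, 1926 and 2195 normalized counts in knockdown against 493, 493 and 443 in the controls (log2 fold 2.02 ± 0.11 SE, limma with BH, adjusted p = 4.5e-06). Ccnf (chr17:24223230-24251409), an F-box protein of the cyclin family, had 1033, 1077 and 1257 against 287, 268 and 265 (log2 fold 2.03 ± 0.11 SE, limma with BH, adjusted p = 4.1e-06). Ccnb1, cyclin B1, was at 1644, 1539 and 1607 in knockdown against 453, 421 and 391 in controls (log2 fold 1.92 ± 0.09 SE, limma with BH, adjusted p = 3.1e-06). In all 3 the lowest knockdown library was above 3 times the highest control. Cdk1, the kinase that cyclin B1 activates, named outside the rule, stood at 1302, 1326 and 1433 against 414, 365 and 355 (log2 fold 1.84). Plk1, a mitotic kinase that USP7 has been reported to stabilise, was at 1203, 1421 and 1634 against 471, 485 and 436 (log2 fold 1.60 ± 0.12 SE, limma with BH, adjusted p = 1.6e-05).

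Promoters of mitotic genes are shown because 11 of the 15 with a RefSeq promoter (73.3%) held TTTGAA on either strand, the letters of the cell cycle homology region, and 13 of 15 (86.7%) held CCAAT. Over 27025 genes the shares were 20.2% and 41.1%, and for TTTGAA they were 16.7% of the tested genes higher in knockdown and 12.1% of those lower. Of the kinesin, kinetochore and spindle genes 10 of 16 (62.5%) held TTTGAA, and of the replication genes 0 of 10. The windows are the 100 bases before the start site on GRCm38.p6 at chr2:164769829-164769928 (Ube2c, plus strand), chr17:24251410-24251509 (Ccnf, minus strand), chr10:69352913-69353012 (Cdk1, minus strand) and chr4:118437344-118437443 (Cdc20, minus strand), on the gene's strand, with both motifs and their reverse complements in capitals.
Ube2c: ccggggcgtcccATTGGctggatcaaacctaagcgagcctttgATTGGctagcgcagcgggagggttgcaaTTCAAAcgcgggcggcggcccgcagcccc
Ccnf: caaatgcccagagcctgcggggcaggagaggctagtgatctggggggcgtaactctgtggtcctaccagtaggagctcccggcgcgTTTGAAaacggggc
Cdk1: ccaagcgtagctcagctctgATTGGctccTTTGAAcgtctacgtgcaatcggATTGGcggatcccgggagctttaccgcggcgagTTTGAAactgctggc
Cdc20: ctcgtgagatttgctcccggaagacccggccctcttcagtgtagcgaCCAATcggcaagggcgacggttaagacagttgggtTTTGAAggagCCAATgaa
Cdc20, the activator of the anaphase-promoting complex, was named for its promoter and had a log2 fold of 1.19.

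Of the G1 regulators, Ccnd2, a D-type cyclin, had 7340.1, 6755 and 6421 normalized counts in knockdown against 2084, 2138 and 2163 in control libraries (log2 fold 1.68 ± 0.09 SE, limma with BH, adjusted p = 3.8e-06). Ccnd1, another D-type cyclin, was at 2645, 2886 and 3032 against 1043, 1052 and 1056 (log2 fold 1.44 ± 0.09 SE, limma with BH, adjusted p = 6.7e-06), and Ccne1, cyclin E1, at 844, 882 and 1048 against 239, 255 and 262 (log2 fold 1.87 ± 0.11 SE, limma with BH, adjusted p = 6.6e-06). The control libraries of each cyclin lay close together, far below every knockdown library. Other members that rose included E2f4, E2f5, E2f8 and Gmnn, and only Cdkn1b and Rb1 fell. The inhibitor Cdkn1b had 292, 260.3 and 267 in knockdown against 448, 474 and 499.7 in controls (log2 fold -0.79). Rb1, the retinoblastoma protein, had 214, 180.0 and 112 against 248, 268 and 271 (log2 fold -0.68 ± 0.21 SE, limma with BH, adjusted p = 0.012). Rb1 fell by 0.41 on the log2 scale without knockdown replicate 3, and its call was lost under median-of-ratios scaling (-0.38).

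In the replication machinery Rrm1 and Rrm2, the subunits of ribonucleotide reductase that makes DNA precursors, rose. Rrm2 had 2360.4, 2276 and 2236 in knockdown against 1014, 921 and 960.2 in controls (log2 fold 1.25 ± 0.08 SE, limma with BH, adjusted p = 1.0e-05), and Rrm1 2622, 2474 and 2121 against 1229, 1165 and 1219.8 (log2 fold 0.99 ± 0.10 SE, limma with BH, adjusted p = 4.3e-05). Gins2, of the complex that activates the replicative helicase, had 434, 557 and 540.4 against 269, 271 and 234 (log2 fold 0.98 ± 0.13 SE, limma with BH, adjusted p = 1.3e-04). Repair genes were few, 4 up and 2 down. Exo1, an exonuclease of mismatch repair, was at 657, 644 and 553 in knockdown against 357, 302 and 360.1 in controls (log2 fold 0.86 ± 0.12 SE, limma with BH, adjusted p = 1.5e-04), and Atr, the kinase of the replication checkpoint, at 674, 466 and 258 against 717, 726 and 806 (log2 fold -0.79 ± 0.29 SE, limma with BH, adjusted p = 0.024). The knockdown libraries of Atr spread widely, its log2 fold was -0.42 without knockdown replicate 3, and its call was lost without control replicate 1 (-0.82), without control replicate 3 (-0.74) and under median-of-ratios scaling (-0.49).

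Among 18 kinesin, kinetochore and spindle genes 12 rose and 6 fell (median 0.79). Those that rose serve mitosis, such as Kif14, a motor of cytokinesis, with 1909, 1816 and 1799.9 in knockdown against 610.2, 569.7 and 572 in controls (log2 fold 1.66 ± 0.09 SE, limma with BH, adjusted p = 3.8e-06), and Kif22, which pushes chromosome arms, with 1164, 1307 and 1821 against 549.8, 462 and 489 (log2 fold 1.49 ± 0.16 SE, limma with BH, adjusted p = 6.1e-05). Cenpw, an inner kinetochore protein, had 133, 176 and 213 against 98.8, 80.5 and 73.5 (log2 fold 1.02 ± 0.19 SE, limma with BH, adjusted p = 8.9e-04). The 6 that fell, given after their values were seen, were Kif27, Kif26a, Kif6, Kif2b, Kif19a and Kif13b, of which Kif27, Kif6 and Kif19a are tied to cilia.

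**Figure D4:**
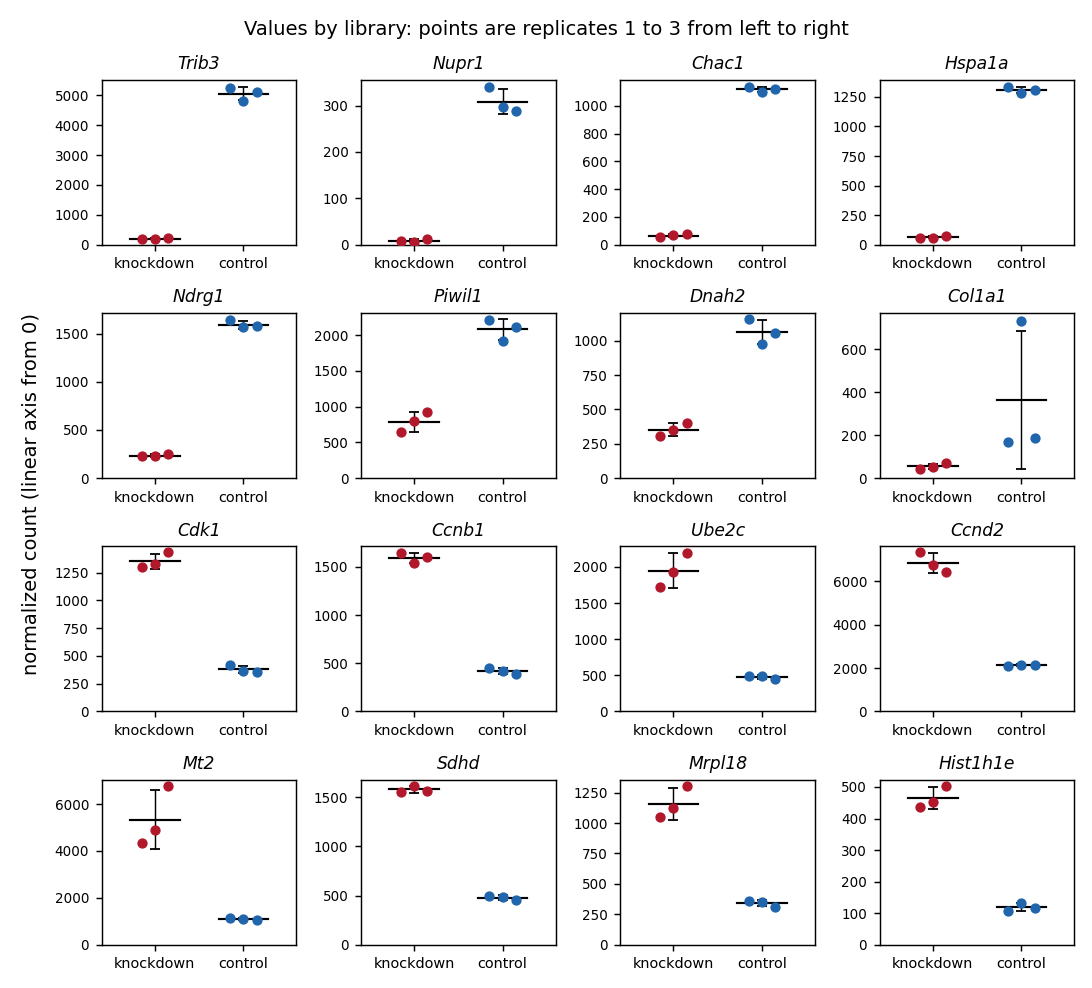
Normalized counts of 16 genes in each library, with knockdown (red) left of control (blue) and replicates 1 to 3 from left to right; horizontal bars are means and error bars SD (n = 3 libraries per group), on linear axes from 0. Groups do not overlap in any of the 16, as in 99.5% of tested transcripts. The control spread relative to the mean is widest in Col1a1, where control replicate 2 is at 735.

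Replication-dependent histone genes, which make the histones packed onto new DNA and whose mRNAs carry no poly(A) tail, had the highest folds of any group of 10 or more. Of 40 tested, 39 rose and 1 fell, with a median of 2.07, which was 2.01 without control replicate 2. Hist1h1e (chr13:23621777-23622558), a linker histone, had 438, 451 and 503 normalized counts in knockdown against 109, 133 and 116 in the controls (log2 fold 1.95 ± 0.12 SE, limma with BH, adjusted p = 7.5e-06). Hist2h2bb, an H2B histone, had 282, 215 and 229 against 22.9, 26.8 and 39.2 (log2 fold 3.01 ± 0.21 SE, limma with BH, adjusted p = 1.1e-05). These were the only members with a mean of at least 100, the rest being low. Members of the H2A, H2B, H3 and H4 families share near-identical coding sequence, so the separate values are uncertain. The member that fell was Hist1h1t, the linker histone of spermatocytes (log2 fold -1.21, named after its value was seen).

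Histone transcripts were short, with a median of 522 bases, and the median fold of their length class was 0.98. The same class held the small nucleolar and Cajal body RNAs, which guide the modification of ribosomal and spliceosomal RNA. All 16 tested rose (median 1.80), and Snord104, the member above 100, had 115, 129 and 157 in knockdown against 76, 72.7 and 78.4 in controls (log2 fold 0.80 ± 0.15 SE, limma with BH, adjusted p = 7.5e-04), a call lost with no library scaling (0.68). These RNAs, like the histone mRNAs, have no poly(A) tail. Rn45s, the precursor of ribosomal RNA and the most abundant listed transcript, had 3511040.0, 3520410.0 and 3242080.0 in knockdown against 1700820.0, 1552440.0 and 1672140.0 in the controls (log2 fold 1.06 ± 0.17 SE, limma with BH, adjusted p = 3.8e-04). Its knockdown libraries all lay above its controls, with replicate 3 the lowest of them.

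Genes that build and run ribosomes rose as a block. All 32 genes of ribosome biogenesis and RNA polymerase I were higher (median log2 fold 0.88). Their median length was 2048 bases, in a class whose median was -0.64 but in which 48.4% of transcripts were higher. Ncl, nucleolin, was among the most abundant transcripts, with 49619, 50004 and 46428 in knockdown against 30645, 29407 and 29126 in controls (log2 fold 0.71 ± 0.09 SE, limma with BH, adjusted p = 1.3e-04), a call lost with no library scaling (0.59). Nop10, a subunit of the particles that pseudouridylate RNA, had 1034, 1234 and 1672 against 386, 345 and 332 (log2 fold 1.86 ± 0.17 SE, limma with BH, adjusted p = 2.6e-05), and Nop16, a nucleolar assembly factor, 1515, 1728 and 2169.9 against 690.3, 713 and 638 (log2 fold 1.39 ± 0.13 SE, limma with BH, adjusted p = 3.5e-05). Npm1, nucleophosmin, had 751, 925 and 1963 against 399, 323 and 317 (log2 fold 1.68 ± 0.31 SE, limma with BH, adjusted p = 7.2e-04). Knockdown replicate 3 stood far above the others, each exceeded every control, and Npm1 has many processed copies among which reads may be split. With no library scaling 18 of the 32 kept a call, and with listed totals without Rn45s 30. The higher calls of all tested transcripts went from 1426 to 699 and 978 under these settings.

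Of 30 cytosolic ribosomal protein genes 28 rose and 2 fell (median 0.78). Rplp1, a protein of the ribosomal stalk, had 15952, 19026 and 26284 in knockdown against 14161, 14107 and 12491 in controls (log2 fold 0.56 ± 0.17 SE, limma with BH, adjusted p = 0.01). Rpl39 had 2269, 2945 and 5678 against 1479, 1273 and 948 (log2 fold 1.47 ± 0.31 SE, limma with BH, adjusted p = 0.0015), and Rpl7a 3479.9, 4049 and 6347 against 2456, 2272 and 1355 (log2 fold 1.19 ± 0.27 SE, limma with BH, adjusted p = 0.0021). Knockdown replicate 3 was the highest library in all 3, and Rplp1 was at 0.36 without it. The Rplp1 call was lost with no library scaling (0.43) and with listed totals without Rn45s (0.09). The 2 that fell were the autosomal copies Rps4l (59.2, 69.4 and 66.5 against 144, 188 and 163, log2 fold -1.32) and Rpl10l (log2 fold -0.93), the second a testis-enriched gene named after its value was seen. The count of higher calls was 12 with no library scaling and 20 with listed totals without Rn45s. For all tested transcripts it was 699 and 978, against 1426 in the main fit. The length class of the group had a median of 0.66, and ribosomal protein genes have many processed copies among which reads may be split.

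Mitochondrial genes followed. All 29 mitochondrial ribosomal protein genes rose (median 0.80), led by Mrpl18, with 1049.8, 1121 and 1305 in knockdown against 363, 349.8 and 312 in controls (log2 fold 1.76 ± 0.11 SE, limma with BH, adjusted p = 9.1e-06), and Mrpl41, with 250.5, 284 and 294 against 72.7, 107 and 102 (log2 fold 1.56 ± 0.17 SE, limma with BH, adjusted p = 5.1e-05). Of 27 nuclear-encoded subunits of the respiratory chain and ATP synthase 25 rose and 2 fell (median 1.00). Sdhd (chr9:50596340-50603849), a membrane anchor of complex II, had 1549.7, 1618 and 1564 normalized counts in knockdown against 499, 484 and 456 in controls (log2 fold 1.72 ± 0.09 SE, limma with BH, adjusted p = 3.7e-06). Its libraries were tight in both groups, whereas Atp5l, of the ATP synthase stalk, spread with replicate 3, at 458, 450.4 and 839.7 against 181, 157 and 186 (log2 fold 1.67 ± 0.23 SE, limma with BH, adjusted p = 1.5e-04). The 2 lower members, seen afterwards, were tissue-restricted isoforms of cytochrome oxidase, Cox6a2 of heart and muscle (-3.03) and Cox8c of testis (-1.15). The respiratory group had a median length of 659 bases, in the class with a median of 0.98, and the mitochondrial ribosomal proteins of 1316 bases, in the class with a median of 0.66. All 10 genes of the citric acid cycle and mitochondrial import, in that same class, rose (median 0.85), such as Timm10, a chaperone of import, with 318, 372 and 409 against 129, 129 and 107 (log2 fold 1.58 ± 0.14 SE, limma with BH, adjusted p = 2.4e-05).

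Proteasome subunits rose in all 19 cases (median 0.80), with a median length of 1387 bases in a class whose median was 0.66. Psma5, of the outer ring of the core, had 1633, 1839.8 and 2035 in knockdown against 778, 758 and 663 in controls (log2 fold 1.32 ± 0.11 SE, limma with BH, adjusted p = 2.1e-05), and Psma2 931, 975 and 1136 against 469.7, 486 and 399 (log2 fold 1.17 ± 0.12 SE, limma with BH, adjusted p = 4.3e-05). With no library scaling 7 of the 19 kept a call, where the higher calls of all tested transcripts went from 1426 to 699. Translation factors rose in 14 of 15 cases (median 0.85), among them Eif2b1, a subunit of the exchange factor that the ATF4 pathway inhibits through eIF2, with 813, 874 and 962 against 376, 341 and 327 (log2 fold 1.34 ± 0.11 SE, limma with BH, adjusted p = 1.6e-05). The exception was the kinase Eif2ak3 described above.

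Spliceosome proteins rose in 19 of 20 cases (median 1.01), in the same length class, at a median of 1300.0 bases. Lsm3, of the protein ring on the end of U6 RNA, had 549, 664 and 991 in knockdown against 216, 235 and 164 in controls (log2 fold 1.81 ± 0.22 SE, limma with BH, adjusted p = 9.7e-05), and the Sm core protein Snrpe 1057, 1192 and 1969 against 628, 556 and 429 (log2 fold 1.35 ± 0.23 SE, limma with BH, adjusted p = 5.3e-04). In both genes knockdown replicate 3 was the highest library and all knockdown libraries exceeded all controls. Without library scaling the higher calls over all tested transcripts went from 1426 to 699. Unscaled libraries gave 13 of 20 higher calls for the spliceosome, 7 of 15 for translation factors, 14 of 29 for mitochondrial ribosomal proteins, 16 of 27 for the respiratory chain, 5 of 10 for the citric acid cycle and import, 7 of 13 for replication and 5 of 12 for G1 and S phase regulators. All 3 listed members of the chaperonin list, which folds actin and tubulin, rose, such as Cct6a with 4467, 4303 and 4502 against 2511, 2325 and 2201 (log2 fold 0.92 ± 0.09 SE, limma with BH, adjusted p = 3.3e-05).

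**Figure D5:**
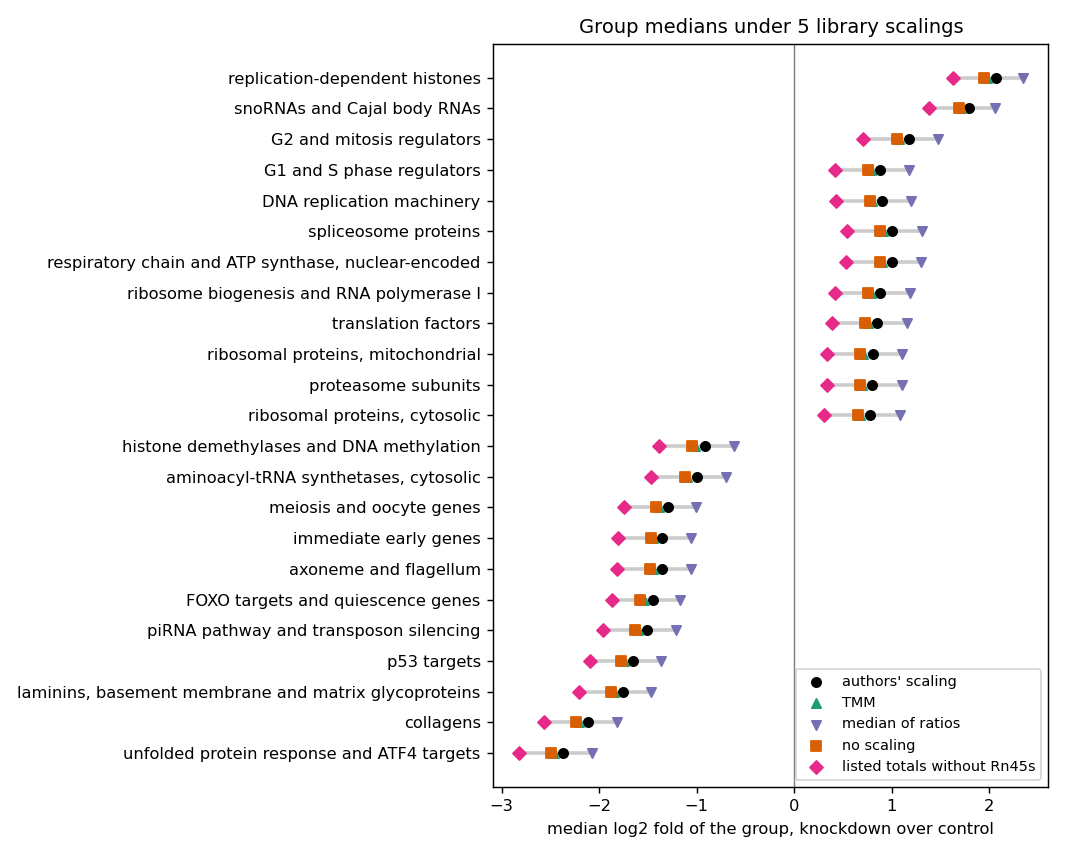
Median log2 fold (knockdown over control) of the same 23 groups under 5 library scalings: the authors' size factors (black circles), TMM (green), median of ratios (purple), none (orange) and listed totals without Rn45s (pink). The shifts of the median transcript against the authors' scaling ran from -0.46 with listed totals to 0.30 with median of ratios. No median of these 23 groups changed sign, but the one nearest to 0 was 0.78, so shifts of this size could hardly change one. Lists with medians near 0, such as Wnt signalling and USP7 substrates, are not drawn and did change sign.

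Metabolic and hypoxia genes were split. Ndrg1, a hypoxia and stress-induced gene (chr15:66929318-66969641), had 228, 225 and 249 normalized counts in knockdown against 1641, 1565 and 1574 in controls (log2 fold -2.76 ± 0.09 SE, limma with BH, adjusted p = 3.3e-07). Egln3, the prolyl hydroxylase that hypoxia induces, went the other way, with 945, 946 and 862 against 393, 377 and 379.7 (log2 fold 1.26 ± 0.09 SE, limma with BH, adjusted p = 1.2e-05), and the glycolytic enzyme Pgam1 rose too (0.99). Of 7 tested genes of the hypoxia and glycolysis list 5 rose and 2 fell. Fasn, fatty acid synthase, had 8457, 9476 and 10629 in knockdown against 3902, 3588 and 3614 in controls (log2 fold 1.36 ± 0.10 SE, limma with BH, adjusted p = 1.6e-05), and Acaca, the enzyme before it in the pathway, 1314, 1496 and 1406 against 643, 585 and 596 (log2 fold 1.21 ± 0.09 SE, limma with BH, adjusted p = 1.6e-05). Of the 7 tested lipid synthesis genes 4 rose and 3 fell. All 10 lysosome and autophagy genes fell (median -0.75), such as Grn, progranulin, with 2046, 2354 and 2684 against 4708, 4422 and 4589 (log2 fold -0.96 ± 0.11 SE, limma with BH, adjusted p = 7.6e-05).

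Genes of later germ cells were lower in knockdown. In the piRNA pathway, by which small RNAs silence transposons in the germline, 10 of 11 fell (median log2 fold -1.51). Piwil1 (chr5:128736071-128755474), a PIWI protein known in mice from spermatogenesis, had 645, 796 and 926 normalized counts in knockdown against 2209.7, 1924 and 2115 in controls (log2 fold -1.41 ± 0.14 SE, limma with BH, adjusted p = 3.5e-05). Mov10l1, a helicase that feeds piRNA precursors, had 95.6, 89.6 and 112 against 314, 323 and 291 (log2 fold -1.64 ± 0.13 SE, limma with BH, adjusted p = 1.6e-05), and Tdrd9, a Tudor-domain helicase, 133, 154 and 133 against 426, 397 and 418 (log2 fold -1.56 ± 0.11 SE, limma with BH, adjusted p = 1.1e-05). In none did a knockdown library reach the controls, as the naming rule required. The member that rose was Tex19.1 (0.78), which protects against transposons in germ and pluripotent cells, named after its value was seen.

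All 9 tested meiosis and oocyte genes fell, of 36 in the list (median -1.30). Stag3, a cohesin subunit of meiotic chromosomes, had 229, 232 and 247 in knockdown against 712, 623 and 756 in controls (log2 fold -1.55 ± 0.11 SE, limma with BH, adjusted p = 1.1e-05). Syce1, of the synaptonemal complex that pairs chromosomes, was at 146, 154 and 139 against 407, 419 and 356 (log2 fold -1.43 ± 0.11 SE, limma with BH, adjusted p = 1.6e-05), and Smc1b, another meiotic cohesin, at 101, 85.7 and 65.1 against 219, 186 and 228 (log2 fold -1.34 ± 0.18 SE, limma with BH, adjusted p = 1.3e-04). The groups stood apart in each, as the naming rule required. The germ cell identity genes tested numbered 5 and all fell, led by Tex101, a surface glycoprotein of germ cells, with 118, 129 and 122 against 398, 321 and 323 (log2 fold -1.48 ± 0.12 SE, limma with BH, adjusted p = 2.0e-05), and Mael, a piRNA protein, with 235, 235 and 211 against 580.0, 439.9 and 518 (log2 fold -1.16 ± 0.13 SE, limma with BH, adjusted p = 5.8e-05). Sperm genes fell in 8 of 9 cases (median -1.24), among them Ldhc, the germ cell lactate dehydrogenase, with 750.4, 781 and 801 against 1976, 1650.4 and 1675 (log2 fold -1.18 ± 0.10 SE, limma with BH, adjusted p = 2.1e-05).

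The largest of the lower groups was the axoneme, the microtubule core of cilia and flagella, in which 45 of 46 listed genes fell (median -1.35) and 31 had a mean of at least 100. Dnah2 (chr11:69420807-69549108), a heavy chain of an inner dynein arm, had 307, 353 and 402 normalized counts in knockdown against 1159, 979 and 1053 in controls (log2 fold -1.59 ± 0.12 SE, limma with BH, adjusted p = 1.6e-05). Cfap65, a cilia and flagella associated protein, was at 315, 379 and 454 against 1209, 1106 and 1175 (log2 fold -1.62 ± 0.14 SE, limma with BH, adjusted p = 2.1e-05). Dnah7b, of another inner arm, was at 141, 115 and 80.4 against 354, 338 and 331 (log2 fold -1.63 ± 0.19 SE, limma with BH, adjusted p = 8.0e-05), though it has the near copies Dnah7a and Dnah7c that may share reads. The member with the most counts, Dnah8, stood at 1751, 1915 and 2114 against 5867, 5123 and 5284 (log2 fold -1.49) and was named after its value was seen. The intraflagellar transport genes Ift88, Ift27 and Ift74, which every ciliated cell uses, had the smallest decreases, at -0.76, -0.61 and -0.59. Ift172 (-0.97) and Ift140 (-0.99), of the same transport, fell about as much as the dynein heavy chain Dnah10 (-0.97). The exception was Dnaaf2, a dynein assembly factor (0.69), which was not called with no library scaling or with listed totals without Rn45s.

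Promoters of axoneme genes are shown because 19 of the 41 with a RefSeq promoter (46.3%) held GTTGCC on either strand, a half-site of RFX factors, which control cilia genes in mammals. The share was 14.1% over 27025 genes, 12.7% of the tested genes higher in knockdown and 19% of those lower. The windows lie before the start site on GRCm38.p6 at chr7:83794872-83794931 (Cfap161, minus strand), chr19:47937627-47937686 (Cfap58, plus strand), chr11:114727367-114727418 (Dnaic2, plus strand) and chr1:46066664-46066723 (Dnah7b, plus strand), on the gene's strand, with the half-site or its reverse complement in capitals.
Cfap161: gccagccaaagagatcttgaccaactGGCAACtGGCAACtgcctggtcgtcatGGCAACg
Cfap58: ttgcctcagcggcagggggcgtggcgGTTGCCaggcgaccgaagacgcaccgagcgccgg
Dnaic2: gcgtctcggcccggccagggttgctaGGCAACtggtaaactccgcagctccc
Dnah7b: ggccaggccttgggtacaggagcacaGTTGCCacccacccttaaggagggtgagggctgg
Cfap161 held the half-site 3 times in this window and had 44.7, 34.3 and 33.3 normalized counts in knockdown, against 129.9, 107 and 124 in the controls (log2 fold -1.66, named for its promoter). The share of lower transcripts with the half-site lay between that of all genes and that of the axoneme group.

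Extracellular matrix genes fell, by less when control replicate 2 was left out. All 12 tested collagens were lower, with a median log2 fold of -2.11, which was -1.63 without that library, with 12 of 12 still called. Col1a1, a chain of fibrillar type I collagen, had 43.7, 49.9 and 69.3 normalized counts in knockdown against 169.9, 735 and 185 in the controls (log2 fold -2.40 ± 0.50 SE, limma with BH, adjusted p = 0.0014, -1.72 without control replicate 2). Its partner Col1a2 had 50.9, 42.1 and 61 against 158, 817 and 169 (log2 fold -2.44 ± 0.55 SE, limma with BH, adjusted p = 0.0022, -1.67 without it). Col6a1, of the microfibrils around cells, had 33.3, 44.4 and 40.2 against 127, 410.4 and 114 (log2 fold -2.19 ± 0.43 SE, limma with BH, adjusted p = 0.001, -1.60 without it). In each gene control replicate 2 exceeded the other controls by more than 3 times, and those other controls still lay above every knockdown library.

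Of 17 laminin, basement membrane and matrix glycoprotein genes 15 fell and 2 rose (median -1.76, and -1.40 without control replicate 2). Hspg2, the basement membrane proteoglycan perlecan, had 46.8, 83.4 and 74.8 in knockdown against 239, 407 and 197 in controls (log2 fold -2.0 ± 0.29 SE, limma with BH, adjusted p = 2.3e-04, -1.70 without it). Lamc3, a laminin chain, had nearly equal controls, at 69.6, 69.4 and 98.4 against 248, 247 and 233 (log2 fold -1.62 ± 0.16 SE, limma with BH, adjusted p = 3.6e-05). The 2 that rose, given after their values were seen, were the abundant laminin chain Lamc1 (2895, 3103 and 3222 against 1876, 1874 and 1869, log2 fold 0.71) and Agrn, agrin (1.10). All 8 matrix proteases, inhibitors and crosslinking enzymes were lower (median -1.81), and 7 were called without control replicate 2 (median -1.33). The collagens had a median length of 6190 bases and the laminins and glycoproteins of 6091 bases, both in the class with a median fold of -0.97.

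Contractile genes were also high in that library. Acta2, smooth muscle actin, had 72.8, 67 and 115 in knockdown against 187, 722 and 162 in controls (log2 fold -1.75 ± 0.51 SE, limma with BH, adjusted p = 0.0079), and its log2 fold was -1.07 without control replicate 2. Myl9, a myosin light chain, had 65.5, 68.6 and 55.4 against 163, 349.8 and 137 (log2 fold -1.64 ± 0.31 SE, limma with BH, adjusted p = 8.5e-04, -1.24 without it), and Mylk, its kinase, 64.4, 68.6 and 58.2 against 188, 424 and 157 (log2 fold -1.85 ± 0.32 SE, limma with BH, adjusted p = 5.7e-04, -1.42 without it). Tagln, transgelin, at 42.6, 42.1 and 43 against 49.8, 224 and 62.5, did not pass (limma with BH, adjusted p = 0.056). Other genes ranked by their excess in that library were the endocytic receptor Lrp1 (24.9, 35.8 and 40.2 against 72.7, 492 and 71, log2 fold -2.02, -1.10 without it), clusterin, Clu (-2.19 and -1.53), the microtubule protein Map1b (-2.34 and -1.79) and Col4a2 (-2.12 and -1.58). Cytoplasmic actin, Actb, rose instead, with 48841, 51645 and 60206 in knockdown against 34812, 32314 and 32569.6 in controls (log2 fold 0.68 ± 0.11 SE, limma with BH, adjusted p = 3.8e-04), a call lost with no library scaling (0.56).

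Signalling groups had few listed members and mixed directions. Fzd9, a Wnt receptor, had 359.6, 376 and 425 normalized counts in knockdown against 75.2, 58 and 71 in controls (log2 fold 2.49 ± 0.14 SE, limma with BH, adjusted p = 4.5e-06), and the receptor Fzd4 91.5, 75.6 and 52.7 against 198, 228 and 233 (log2 fold -1.60 ± 0.20 SE, limma with BH, adjusted p = 1.1e-04). The Wnt group had 4 genes higher and 4 lower, with a median of -0.13 that was -0.01 without knockdown replicate 1 and -0.31 without knockdown replicate 3. In the Notch group, 4 rose and 2 fell. Lfng and Mfng, glycosyltransferases that tune Notch receptors, had log2 folds of 1.23 and 1.03, and the receptor Notch3 0.73, with Notch3 not called with no library scaling (0.61). Tgfb1, a ligand of the TGF-beta family and its most abundant member, had 12121, 13951 and 18249.9 in knockdown against 7939, 7253 and 7465 in controls (log2 fold 0.95 ± 0.14 SE, limma with BH, adjusted p = 2.8e-04). Smad3, a transducer of that signal, had 197, 168 and 184 against 306, 362 and 305 (log2 fold -0.82 ± 0.12 SE, limma with BH, adjusted p = 2.4e-04). All 3 tested Hedgehog genes fell, among them Hhip, which binds the ligand (-0.95), and Itgb3, the integrin beta 3 chain, was lower as well (802, 939 and 926 against 2122, 1978 and 2170.2, log2 fold -1.23).

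Of 30 reported USP7 substrates and partners 4 were listed. Plk1 and Clspn were higher and Rb1 and Ring1 lower, and protein levels were not measured. Clspn, claspin of the replication checkpoint, had 2539, 2882 and 3004 normalized counts in knockdown against 1676, 1578 and 1694 in controls (log2 fold 0.76 ± 0.09 SE, limma with BH, adjusted p = 1.1e-04), a call lost with no library scaling (0.64). Ring1, a Polycomb ubiquitin ligase named after its value was seen, had 213, 219 and 302 against 371, 397 and 327 (log2 fold -0.59). Other Polycomb genes rose, namely Phf19 (1019.6, 1199 and 1341 against 560.4, 507 and 523, log2 fold 1.15), Cbx6 (0.94) and Pcgf3 (0.60), the last not called with no library scaling or with listed totals without Rn45s.

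Histone demethylases fell in all 5 cases (median -0.92). Their median length was 6654 bases, and the median fold of that length class, -0.97, was as low. Kdm5b, which removes methyl groups from H3K4, had 1816, 1872 and 1632 in knockdown against 3378, 3187 and 3483 in controls (log2 fold -0.92 ± 0.09 SE, limma with BH, adjusted p = 3.9e-05). Kdm7a, which acts on H3K9 and H3K27, had 168, 144 and 151 against 508, 552 and 532 (log2 fold -1.77 ± 0.11 SE, limma with BH, adjusted p = 6.6e-06), and the testis-enriched Kdm4d 64.4, 61.6 and 58.2 against 179.7, 158 and 158 (log2 fold -1.41 ± 0.13 SE, limma with BH, adjusted p = 2.8e-05). Every control exceeded every knockdown library in these 3, as the naming rule required.

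Other enzymes of the ubiquitin system were split. Among ubiquitin-specific proteases 2 rose and 3 fell. Usp46 had 808, 693 and 502 in knockdown against 303, 321 and 345 in controls (log2 fold 1.02 ± 0.17 SE, limma with BH, adjusted p = 4.1e-04), and Usp32 604, 494 and 398 against 824, 774 and 783 (log2 fold -0.69 ± 0.15 SE, limma with BH, adjusted p = 0.0016). Of 37 genes of the RING, TRIM, F-box and Kelch families 22 rose and 15 fell. Fbxo5, which restrains the anaphase-promoting complex, had 498, 463 and 521 against 219, 172 and 195 (log2 fold 1.34 ± 0.12 SE, limma with BH, adjusted p = 2.6e-05), and Rnf213, a large ubiquitin ligase, 187, 172 and 152 against 542, 631 and 525 (log2 fold -1.73 ± 0.12 SE, limma with BH, adjusted p = 1.2e-05). With no library scaling the split of these families turned to 9 higher and 13 lower, and that of all tested transcripts to 699 and 1444.

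The remaining lists were small or mixed. Of 9 tested long non-coding and small nucleolar host RNAs 5 rose and 4 fell, from Dancr (2.30, few counts) and Snhg3 (287, 337 and 509.9 in knockdown against 118, 77.1 and 93.1 in controls, log2 fold 1.94) to Snhg12 (319, 360.0 and 391 against 1077, 932 and 974, log2 fold -1.48) and the nuclear RNA Neat1 (-1.15). Without strand in the counting notes, reads of such RNAs and of genes on the other strand cannot be told apart. All 4 tested imprinted genes fell, among them the receptor Igf2r (-1.51) and Peg3 (-1.51), as did both tested Hox cluster genes, where 50.7% of all tested transcripts fell. No tested member of either list had a mean of at least 100. The median length of the imprinted genes put them in the length class with a median fold of -0.97. Of 21 Zfp-named zinc finger genes 6 rose and 15 fell, with Zfp36, which destabilises cytokine mRNAs, at 88.3, 91.2 and 111 against 184, 191 and 236 (log2 fold -1.07).

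All 3 listed interferon and antigen presentation genes rose, led in counts by the membrane protein Ifitm2 (1508, 1683 and 1830.4 in knockdown against 1042, 1079 and 933 in controls, log2 fold 0.72), which was not called with no library scaling. Apoptosis genes split evenly, 2 up and 2 down, and so did the 4 receptor tyrosine kinase genes, in which the phosphatase Dusp6 was higher (0.60) and the receptor Igf1r lower (-2.65). The Dusp6 call was lost with no library scaling (0.47) and with listed totals without Rn45s (0.13). Of 5 ubiquitin-conjugating enzymes 2 rose, Ube2c and Ube2n (0.72), and 3 fell, with the Ube2n call lost under the same settings (0.60 and 0.26). Of 7 tested YAP and serum response targets 2 rose, 4 fell and Tagln did not pass, with a median of -1.26 that was -0.61 without control replicate 2. Fibroblast markers split, since Col1a1 and Col1a2 fell while Vim, vimentin (0.64), and S100a4 (1540.4, 1855 and 2056 against 1106, 985 and 883, log2 fold 0.87) rose. Cxcl12, the single listed member of the inflammation and cytokine list, was too low to test.

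Several of the largest single changes were in genes of no group described so far. Ctsg, cathepsin G and 1 of 2 listed granulocyte markers, had 16.6, 19.5 and 43 normalized counts in knockdown against 458, 474 and 437 in controls (log2 fold -4.19 ± 0.30 SE, limma with BH, adjusted p = 1.2e-05). Pi16, a peptidase inhibitor, had 11.4, 14 and 26.3 against 252, 247 and 246 (log2 fold -3.86 ± 0.27 SE, limma with BH, adjusted p = 1.1e-05), Tcp11l2 17.7, 22.6 and 29.1 against 261, 265 and 249.8 (log2 fold -3.46 ± 0.19 SE, limma with BH, adjusted p = 4.3e-06) and Angptl6, an angiopoietin-like protein, 20.8, 24.9 and 18 against 214, 233 and 218 (log2 fold -3.33 ± 0.16 SE, limma with BH, adjusted p = 3.1e-06). The circadian repressor Ciart was at 43.7, 60.8 and 83.1 against 623, 537 and 607 (log2 fold -3.26 ± 0.21 SE, limma with BH, adjusted p = 9.1e-06). On the side of increases, Akr1c13, an aldo-keto reductase, had 194, 185 and 254 in knockdown against 31.9, 29.4 and 38 in controls (log2 fold 2.63 ± 0.17 SE, limma with BH, adjusted p = 9.5e-06). Spint1, an inhibitor of surface proteases, had 419, 506 and 489 against 115, 104 and 96.8 (log2 fold 2.15 ± 0.12 SE, limma with BH, adjusted p = 5.8e-06), and the transcription factor Onecut3 419, 469 and 503 against 108, 100.4 and 111 (log2 fold 2.11 ± 0.12 SE, limma with BH, adjusted p = 4.3e-06). Kpna2, a nuclear import receptor, had 2824, 2614 and 2205 against 702, 627 and 623 (log2 fold 1.96 ± 0.11 SE, limma with BH, adjusted p = 5.8e-06). In all 9 genes the knockdown and control libraries stood far apart, as a choice by largest fold without overlap required. Tubb5, a beta tubulin among the most abundant transcripts, rose (1.05), and Dync1h1, the heavy chain of cytoplasmic dynein, fell (-0.67).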

How the data were processed

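RNA of cultured cells was sequenced in 6 libraries, 3 of Usp7 knockdown and 3 of its control, with TruSeq kits per the labels' protocols. Bowtie 0.12.2 and the mouse build mm10 (GRCm38) are named in the submitters' processing notes; of the counting program, its use of strand and the selecting test nothing is stated (not given in the sources used here). For these libraries the authors deposited 1 table with normalized counts per transcript, a signal scaled by size factors, beside their own log2 fold, its error, a test statistic as a score and p-values, all on selected transcripts only. Each library's values were whole multiples of 1 step in 100% of cases within 0.001 read, so reads and size factors (0.722 to 1.28 in knockdown, 0.816 to 1.22 in control) were recovered. Duplicate libraries were looked for with a chi-square test, which gave 2.13 to 33.8 per degree of freedom between replicates.

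Log2 folds and tests came from limma 3.58.1 (R 4.3.3) on log2(normalized count + 1), after keeping the 2902 transcripts with at least 10 normalized counts in at least 3 libraries, with Benjamini-Hochberg (BH) adjustment at 0.05. The pseudocount shrinks folds of low transcripts. On the recovered reads the quasi-likelihood test of edgeR 4.0.16 called 2902 of these transcripts and DESeq2 1.42.0 also 2902. The code was tested on simulated data. Listed totals that include Rn45s were not used as a scale, because that transcript held 51.5 to 65.3% of listed counts. Gene groups were 68 lists, of which 11 are cell markers. Genes were named by rule: a mean of at least 100, groups that do not overlap and no predicted or clone name, then the 10 highest and 10 lowest folds, up to 3 genes per list, the 8 most abundant and 8 with the largest excess in control replicate 2. Members and lists were chosen with earlier results of these data known. Annotation and promoter sequences came from the GRCm38 reference and RefSeq, matching 3154 transcripts. Replicate numbers were checked for pairing, the correlations of same-numbered deviations were -0.07, -0.02 and -0.10, and no pairing was used. The overexpression libraries were not used here.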

Additional observations from a re-analysis of the deposited data

How the results depend on the processing

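Of 17 alternatives, leaving out 1 library in turn gave 2879 to 2897 calls, 49.0 to 49.4% of them higher in knockdown, pseudocounts of 0.5 and 5 gave 2898 and 2896, and no filter gave 3096. A minimum of 100 normalized counts in 3 libraries left 1846 calls, 64.3% higher (1187 higher, 659 lower), as fewer transcripts were tested. With no library scaling 2143 were called, 32.6% higher, and with listed totals without Rn45s 2452, 39.9% higher. Neither is a neutral scale. The first leaves read depth in, and the second, like TMM and median of ratios here, was computed from the selected transcripts. Median of ratios moved the median of all tested transcripts by 0.30 and gave 2822 calls; listed totals moved it by -0.46. The fit with the replicate block called 2898, as many as without it. Same-numbered libraries did not deviate together, but this cannot show whether they were prepared together, and the labels do not say. No named gene reversed, but all had been selected for a fold of at least 1.5, so shifts of this size could hardly reverse one. With the minimum of 100 the median of all tested transcripts itself went from -0.61 to 0.67. List medians reversed with the minimum of 100 for oxidative stress (0.70), integrins (0.19), TGF-beta (0.064), receptor tyrosine kinases (0.60), ubiquitin-specific proteases (0.91), conjugating enzymes (0.72) and long non-coding RNAs (-0.63), and with median of ratios for Wnt (0.17) and receptor tyrosine kinases (0.020). The median of USP7 substrates was -0.010 with TMM, -0.037 with no scaling and -0.38 with listed totals. The causes were not tested. Whole-library depth is unknown, and low transcripts such as histones and matrix genes carry most counting error.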

Other observations

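A few genes, chosen after their values were seen and not as a list, are given as single values. Mxd4, a MAX partner that opposes MYC, had 292, 332 and 454 normalized counts in knockdown against 1127, 1032 and 1118 in controls (log2 fold -1.63 ± 0.16 SE), Mxd1 104, 89.6 and 103 against 274, 307 and 303 (-1.57 ± 0.12) and Mxi1 67.6, 93.5 and 84.5 against 161, 144 and 146 (-0.88 ± 0.15). Mxd3, of the same family and expressed in dividing cells, was higher, with 211, 228 and 299 against 89, 106 and 107 (1.27 ± 0.16). Among tubulins picked in the same way, the broadly used Tuba1b (1.66), Tuba1c (1.67) and Tubb4b (1.33) were higher, whereas the testis isoforms Tuba3a (649.6, 787 and 1084 against 2255, 2004 and 2018, log2 fold -1.35) and Tuba3b (-1.37) were lower, and these near-identical genes may share reads.

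Markers of blood cells were listed as well. Gzmb, a granule protease, had 2466, 2442 and 2598 normalized counts in knockdown against 1489, 1250.3 and 1315 in controls (log2 fold 0.89 ± 0.09 SE). In no fixed list, and chosen after their values were seen, the interleukin 2 receptor chain Il2ra had 939, 944 and 793 against 325, 279 and 316 (1.54), the transcription factor Gata2 566, 676 and 804 against 295, 270.2 and 312 (1.21) and platelet factor 4, Pf4, 687, 829 and 1138 against 408, 323 and 288 (1.36). Cd68, of macrophages, was lower, at 102, 91.2 and 105 against 297, 296 and 329 (-1.62), as was Ptprc, the common leukocyte antigen, at 69.6, 49.1 and 38.8 against 86.6, 126 and 103 (-1.01). Of 12 leukocyte and macrophage markers these 2 were listed, and of 11 granulocyte and mast cell markers Gzmb and Ctsg. Their source was not tested, and levels of germ cell genes outside the selection were not analysed here.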
